A study of Homo sapiens with 6 samples.

Results

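FAT1 and FAT4, the large FAT cadherins of the cell surface, were examined together with 7 regulators of the Hippo pathway: YAP1, LATS2, AMOTL1, AMOTL2, AJUBA, PTPN14 and WWC1. The set was given as a list of names, drawn up with earlier results of these data known. All 9 were found among the 12010 genes named in the deposited files. A further 70 genes of the same pathway were available beside them. RNA sequencing compared 92.1, an established human uveal melanoma line (uveal melanoma arises from melanocytes inside the eye), under 2 treatments of 24 h. The 3 DMSO libraries came from cells given the solvent only, and the 3 LBH589 libraries from cells given 0.1 µM LBH589 (panobinostat), an inhibitor of the histone deacetylases. All 6 libraries were made from total RNA of this line in medium with serum, so the comparison holds for 1 tumour's cells at 1 dose and time. Separate cultures are not named in the labels, and a p-value here therefore reflects the spread among 6 libraries that may vary for technical reasons only.

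The Hippo pathway limits growth by keeping a transcriptional coactivator, YAP1, out of the nucleus. The kinases STK3 and STK4 with their partner SAV1 activate LATS1 and LATS2, which phosphorylate YAP1 so that it is held in the cytoplasm or degraded, while unphosphorylated YAP1 enters the nucleus and drives genes through the TEAD factors. FAT cadherins, angiomotins (AMOTL1, AMOTL2), WWC1 and PTPN14 act upstream or bind YAP1 directly, and AJUBA restrains the LATS kinases. In uveal melanoma the common activating mutations of the G protein genes GNAQ and GNA11 are known to engage YAP1. These roles depend largely on phosphorylation and location in the cell, which RNA levels do not show.

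Of the 9 genes, 2 were higher in LBH589 (FAT4 and AMOTL1), 2 were lower (YAP1 and AMOTL2) and 5 did not pass the test (FAT1, LATS2, WWC1, PTPN14 and AJUBA). The test was limma on log2(FPKM + 1), fitted to the 11520 genes whose mean reached 0.5 FPKM and called at a Benjamini-Hochberg adjusted p below 0.05. FPKM values are fragments scaled to the length of the transcript and the depth of the library, summed here over the listed transcripts of each gene. Over all tested genes the same rule called 48.8% of them, 27.2% higher and 21.6% lower. The groups did not overlap for 6 of the 9, against 59.5% of all tested genes. Both counts lie near those backgrounds, and the median log2 fold change of the 9 genes was 0.09, beside 0.08 over all tested genes. The values of single genes are therefore described below, and no shift of the set as a whole is read from them.

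Promoter sequences are shown for YAP1, AMOTL2, LATS2 and AMOTL1, because YAP1 acts through the TEAD factors and several of these genes are themselves known targets of YAP1. RefSeq promoters on GRCh38.p14 were matched by symbol for 8 of the 9 genes, all but FAT4 (11 promoters). The letters CATTCC, or GGAATG on the other strand, which TEAD factors recognise, and the E-box letters CACGTG, the same on both strands and read by basic helix-loop-helix factors, were searched from 250 bases before to 50 bases after each start site. The E-box was added after the promoters had been seen. The stretches below run 5′ to 3′ on the strand of the gene and end 30 bases after the start site, with TEAD and E-box letters in capitals. They lie at chr11:102110197-102110476 (plus strand) for YAP1, chr3:134374418-134374697 (minus strand) for AMOTL2, chr13:21061557-21061836 (minus strand) for LATS2 and chr11:94768106-94768385 (plus strand) for AMOTL1.
YAP1: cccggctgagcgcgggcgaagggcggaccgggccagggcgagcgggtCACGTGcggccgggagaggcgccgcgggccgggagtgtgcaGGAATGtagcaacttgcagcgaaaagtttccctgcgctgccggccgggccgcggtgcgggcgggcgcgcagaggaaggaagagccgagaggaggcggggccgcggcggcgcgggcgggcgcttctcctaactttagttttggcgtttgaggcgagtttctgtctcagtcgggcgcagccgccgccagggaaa
AMOTL2: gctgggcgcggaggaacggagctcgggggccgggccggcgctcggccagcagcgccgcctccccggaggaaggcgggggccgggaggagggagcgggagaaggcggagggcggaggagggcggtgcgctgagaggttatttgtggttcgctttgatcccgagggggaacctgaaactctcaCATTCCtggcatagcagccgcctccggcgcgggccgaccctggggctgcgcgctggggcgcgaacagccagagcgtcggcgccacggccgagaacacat
LATS2: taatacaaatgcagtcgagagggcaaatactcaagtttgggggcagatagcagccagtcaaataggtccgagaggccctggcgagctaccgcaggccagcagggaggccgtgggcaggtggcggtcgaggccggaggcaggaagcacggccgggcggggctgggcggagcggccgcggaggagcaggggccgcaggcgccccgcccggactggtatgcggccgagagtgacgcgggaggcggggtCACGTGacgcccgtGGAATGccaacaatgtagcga
AMOTL1: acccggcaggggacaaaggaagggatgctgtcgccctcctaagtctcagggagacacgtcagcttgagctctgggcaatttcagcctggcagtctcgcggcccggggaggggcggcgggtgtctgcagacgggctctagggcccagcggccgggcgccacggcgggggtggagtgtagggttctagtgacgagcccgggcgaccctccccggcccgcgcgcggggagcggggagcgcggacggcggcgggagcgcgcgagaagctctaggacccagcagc
In YAP1 the TEAD letters began 162 bases before the start site, as GGAATG, and an E-box stood 203 bases before it. In the AMOTL2 promoter shown the letters CATTCC began 69 bases before the start site, and the other AMOTL2 promoter held neither motif. LATS2 held an E-box 5 bases before its start site and GGAATG just inside the transcript, and the promoter of AMOTL1 held neither. Over the 11 promoters, 5 held the TEAD letters, in YAP1, AMOTL2, LATS2, PTPN14 (200 bases before the start) and AJUBA (59 bases before the start of the more downstream of its promoters). Of all 35116 RefSeq promoters of that length, 14.0% held the TEAD letters and 7.26% the E-box letters. A match describes letters in a window and is no evidence of binding.

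**Figure D1:**
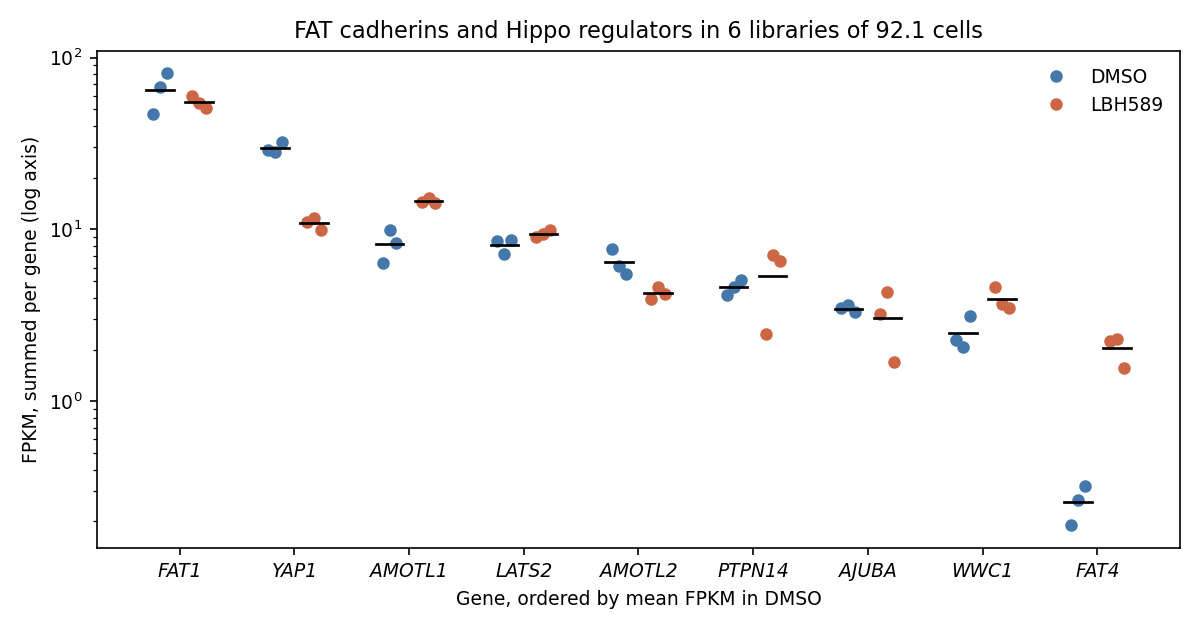
Summed FPKM (log axis) of the 9 genes in each of the 3 DMSO (blue) and 3 LBH589 (orange) libraries; points are libraries, in replicate order from left to right, and black lines are group means. YAP1 fell from a mean of 29.8 to 10.8 FPKM and FAT4 rose from 0.260 to 2.03 FPKM, each with no overlap, while the FAT1 values of the groups overlap.

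FAT4, a giant cadherin whose partner is the dachsous cadherin DCHS1, had the greatest fold difference of the 9 genes. Its values were 0.190, 0.265 and 0.323 FPKM in DMSO replicates 1 to 3 and 2.24, 2.30 and 1.55 FPKM in LBH589 replicates 1 to 3. All 3 LBH589 libraries lay above all 3 DMSO libraries, with LBH589 replicate 3 the lowest of its group. The mean rose from 0.260 ± 0.0668 to 2.03 ± 0.414 FPKM (SD, n = 3 each), a ratio of 7.82 in FPKM (log2 fold change 1.26, SE 0.15, adjusted p = 8.38e-04). On the log2(FPKM + 1) scale such a low gene's change is understated, and with 0.1 in place of 1 the log2 fold change was 2.56. The call held in each of 16 alternative settings, with adjusted p from 5.98e-04 to 0.00885. Even after the rise FAT4 stayed low, going from percentile 3.75 to percentile 20.01 of mean FPKM among tested genes. Its DMSO mean is below the 0.5 FPKM that either group must reach to be listed, so FAT4 entered the files through its LBH589 values alone.

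FAT1, the related cadherin and the most abundant of the 9 genes, did not pass the test. It was at 46.9, 67.5 and 80.9 FPKM in the DMSO libraries and at 59.3, 54.1 and 51.1 FPKM in the LBH589 libraries. The DMSO libraries spread widely around the LBH589 values, so the groups overlapped. The means were 65.1 ± 17.1 and 54.9 ± 4.16 FPKM (log2 fold change -0.21, SE 0.20, adjusted p = 0.436). Without DMSO replicate 1, the lowest of its group, the log2 fold change was -0.43 and passed (adjusted p = 0.0357, in a range of 0.0357 to 0.987 over 17 alternatives). FAT1 stood near the top of all tested genes in both groups, at percentiles 94.7 and 93.9.

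The 4 listed transcripts of FAT1 did not move alike. The full-length FAT1-201, of 27 exons and 14786 nucleotides, was at 25.3, 38.3 and 38.9 FPKM with DMSO against 37.2, 34.8 and 31.5 FPKM with LBH589 (log2 fold change 0.03, SE 0.19, transcript-level adjusted p = 0.930). FAT1-211, a model of 1305 nucleotides and 4 exons with an incomplete 5′ end, was at 17.8, 16.5 and 19.1 FPKM with DMSO against 5.22, 5.66 and 5.11 FPKM in LBH589. Every LBH589 value of FAT1-211 was far below every DMSO value, and it fell by 1.57 on the log2 scale (SE 0.13, transcript-level adjusted p = 0.00174). Its share of the FAT1 sum went from 27.3 to 9.72%. Because 97.2% of its bases also lie in FAT1-201, fragments from the 2 models cannot be assigned with certainty. FAT1-208, of 1852 nucleotides, varied between 2.43 and 21.3 FPKM within DMSO and did not pass (adjusted p = 0.593). With the lengths of the transcripts taken into account, so that short models weigh less, the log2 fold change of FAT1 was 0.01 in place of -0.21.

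Over the 9 genes, 26 transcripts were listed and 25 had a mean of at least 0.5 FPKM. Of those 25, 1 was called higher (FAT4-202) and 3 lower (FAT1-211, YAP1-202 and YAP1-207). Over all 26943 transcripts tested in this way, 15.9% were called, 8.56% higher and 7.32% lower. FAT4, LATS2 and PTPN14 had 1 listed transcript each, so their gene values do not depend on how transcripts were added.

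**Figure D2:**
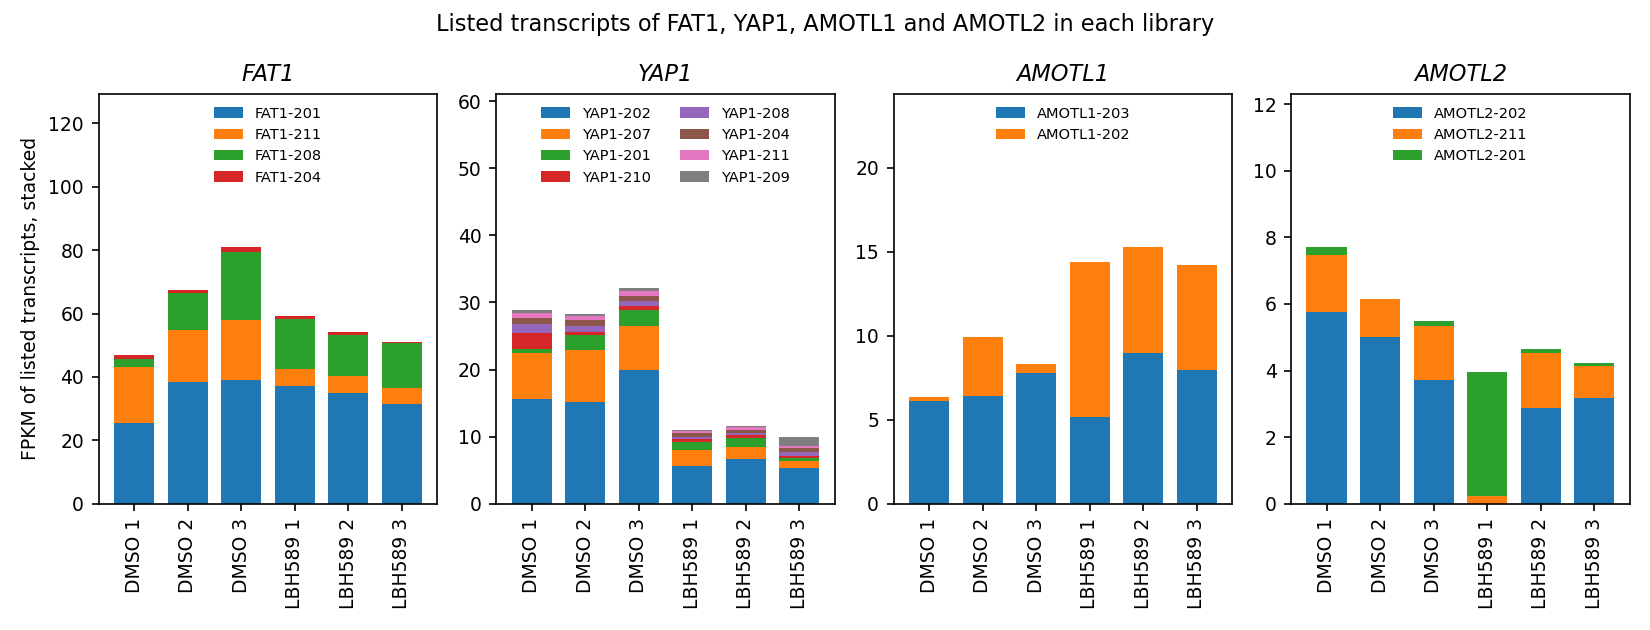
Stacked FPKM of the listed transcripts of FAT1, YAP1, AMOTL1 and AMOTL2 in each library, 1 bar per library and 1 colour per transcript, with a separate linear axis from 0 for each gene. The FAT1-211 layer is thinner in all 3 LBH589 bars (5.33 against 17.8 FPKM on average), all 3 YAP1 bars of LBH589 are shorter, and the AMOTL1-202 layer is thicker in LBH589.

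YAP1, the coactivator on which the pathway converges, was lower in all 3 LBH589 libraries. It was at 28.8, 28.3 and 32.2 FPKM with DMSO against 11.1, 11.6 and 9.87 FPKM in LBH589. Both groups were tight and lay far apart. The mean fell from 29.8 ± 2.12 to 10.8 ± 0.893 FPKM, to 0.364 times the DMSO level (log2 fold change -1.38, SE 0.11, adjusted p = 1.80e-04). The call held in each of 17 alternative settings, with log2 fold changes between -1.45 and -1.21 and adjusted p from 1.40e-04 to 0.00451. Its percentile among tested genes went from 85.7 to 63.3, and YAP1 passed from well above AMOTL1 in DMSO to below it in LBH589.

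YAP1 had 8 listed transcripts, 7 of them tested. The most abundant, YAP1-202 with 8 exons and 5284 nucleotides, was at 15.6, 15.2 and 19.9 FPKM with DMSO against 5.68, 6.73 and 5.29 FPKM with LBH589 (log2 fold change -1.37, SE 0.17, transcript-level adjusted p = 0.00568). It held 56.8% of the YAP1 sum in DMSO and 54.4% in LBH589, so its share hardly moved. YAP1-207, a 5′ incomplete model of 1415 nucleotides, went from 6.94, 7.65 and 6.55 FPKM to 2.28, 1.76 and 1.00 FPKM (log2 fold change -1.61, SE 0.24, adjusted p = 0.0104). The other 5 tested transcripts did not pass, and their log2 fold changes lay between -0.54 and -0.30. The opposite-strand gene AP000942.2 overlaps 9.97% of the exon bases of YAP1, and whether the counting used strand is not given in the sources used here.

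LATS2, which phosphorylates YAP1, did not pass the test although its groups did not overlap. It was at 8.52, 7.19 and 8.64 FPKM with DMSO against 9.04, 9.43 and 9.87 FPKM in LBH589. Every LBH589 value was above every DMSO value, but the gap was small beside the spread within DMSO. The means were 8.12 ± 0.802 and 9.44 ± 0.413 FPKM (log2 fold change 0.20, SE 0.11, adjusted p = 0.200), and LATS2 was called in 0 of 17 alternatives. Its relative LATS1 was at 2.99, 4.02 and 5.26 FPKM with DMSO against 3.07, 2.92 and 3.11 FPKM in LBH589 and did not pass either (log2 fold change -0.31, adjusted p = 0.219). It did pass without DMSO replicate 1 (log2 fold change -0.48, adjusted p = 0.0432).

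Of the 7 genes of the core kinase cassette, to which LATS2 belongs, all were tested, 3 were called higher (SAV1, STK3 and STK4) and 0 lower, where 27.2% of all tested genes were higher and 21.6% lower. SAV1, the scaffold that brings the kinases together, rose from 12.5 ± 0.920 to 27.3 ± 0.575 FPKM (log2 fold change 1.07, adjusted p = 3.07e-04). STK3 rose from 16.3 ± 1.78 to 27.4 ± 1.82 FPKM (log2 fold change 0.72, adjusted p = 0.00309). STK4 rose from 14.97 ± 0.829 to 19.7 ± 0.323 FPKM (log2 fold change 0.37, adjusted p = 0.0161), but its change was 0.01 with transcript lengths taken into account (adjusted p = 0.989). The STK4 call also ended without LBH589 replicate 1 (adjusted p = 0.0547) or replicate 2 (0.0601). LATS2 itself and the LATS partners MOB1A and MOB1B did not pass.

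The angiomotins AMOTL1 and AMOTL2, junction proteins that bind YAP1 and hold it outside the nucleus, differed from each other in direction. AMOTL1 was at 6.37, 9.91 and 8.33 FPKM with DMSO against 14.4, 15.3 and 14.2 FPKM in LBH589. The LBH589 libraries were close to each other and all above DMSO, where the values were more spread. The mean rose from 8.20 ± 1.78 to 14.6 ± 0.557 FPKM, a ratio of 1.78 (log2 fold change 0.78, SE 0.16, adjusted p = 0.00862). With this rise AMOTL1 became the most abundant of the 9 genes after FAT1, and its percentile went from 55.7 to 71.1.

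The AMOTL1 rise lay mostly in AMOTL1-202, a transcript of 12 exons and 8844 nucleotides. That transcript was at 0.252, 3.53 and 0.555 FPKM with DMSO against 9.22, 6.28 and 6.24 FPKM in LBH589. All LBH589 values were higher, but the DMSO values differed widely among themselves, and it did not pass over all transcripts (log2 fold change 1.98, SE 0.53, adjusted p = 0.0624). AMOTL1-203, with 13 exons and 8970 nucleotides, was at 6.12, 6.38 and 7.77 FPKM with DMSO against 5.18, 8.98 and 7.97 FPKM with LBH589 (log2 fold change 0.09, adjusted p = 0.840). AMOTL1-202 thus made up 17.6% of the sum in DMSO and 49.5% in LBH589. It shares 99.7% of its bases with AMOTL1-203, so the split between them is less certain than their sum. With AMOTL1-203 alone in place of the sum, AMOTL1 was not called (adjusted p = 0.794). The opposite-strand gene AP002383.2 overlaps 4.94% of its exon bases.

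AMOTL2 was lower in LBH589, by a smaller and less stable difference. It was at 7.70, 6.15 and 5.48 FPKM with DMSO against 3.95, 4.65 and 4.21 FPKM in LBH589. The lowest DMSO value was only a little above the highest LBH589 value. The mean fell from 6.44 ± 1.14 to 4.27 ± 0.353 FPKM, to 0.663 times the DMSO level (log2 fold change -0.49, SE 0.15, adjusted p = 0.0373). The call ended when library sums were made equal (log2 fold change -0.34, adjusted p = 0.131), and it held in 9 of 17 alternatives (adjusted p from 0.0178 to 0.191). It ended without DMSO replicate 1 (adjusted p = 0.0567) or 2 (0.0785) and without LBH589 replicate 1 (0.114), 2 (0.0684) or 3 (0.0966). The most abundant transcript, AMOTL2-202, was at 5.76, 5.02 and 3.71 FPKM with DMSO against 0, 2.86 and 3.17 FPKM in LBH589. In LBH589 replicate 1, where AMOTL2-202 was listed at 0, the overlapping AMOTL2-201 was at 3.71 FPKM, against at most 0.239 FPKM in the other 5 libraries, so that the sum of AMOTL2 was steadier than its transcripts.

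Within a library the balance of the angiomotins moved further than either gene, which follows from their opposite directions. The log2 ratio of (FPKM + 1), AMOTL1 over AMOTL2, was -0.24, 0.61 and 0.53 in DMSO and 1.64, 1.53 and 1.55 in LBH589. The LBH589 libraries agreed closely and all lay above DMSO, where replicate 1 alone had more AMOTL2 than AMOTL1. The mean ratio went from 0.30 ± 0.468 to 1.57 ± 0.0598, a difference of 1.27. FAT1 over FAT4 went from 5.68 ± 0.317 to 4.21 ± 0.145, a difference of -1.47, or -2.78 with 0.1 added in place of 1. LATS1 over LATS2 went from -0.86 ± 0.343 to -1.37 ± 0.0605, a difference of -0.51. In all 3 ratios the groups did not overlap, though LATS1 over LATS2 was barely apart (-1.25 in DMSO replicate 1, -1.30 in LBH589 replicate 1). FAT4 was listed through its LBH589 values alone, so only a rise of FAT4 could enter FAT1 over FAT4. No background share of non-overlapping ratios was computed. Each ratio had an exact two-sided permutation p of 0.1 (0.1 after Benjamini-Hochberg adjustment over the 3 ratios), which is the smallest that 3 against 3 can give. A ratio within a library does not depend on how libraries are scaled apart from the added 1, but it shows only unequal change, not which of a pair moved.

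WWC1, also known as KIBRA, a scaffold that activates the LATS kinases, was above DMSO in all 3 LBH589 libraries without passing the test. It was at 2.27, 2.06 and 3.13 FPKM with DMSO against 4.64, 3.67 and 3.50 FPKM in LBH589. The nearest values of the groups, DMSO replicate 3 and LBH589 replicate 3, lay close together. The means were 2.49 ± 0.569 and 3.94 ± 0.615 FPKM, a ratio of 1.58 (log2 fold change 0.51, SE 0.17, adjusted p = 0.0520). WWC1 passed in 5 of 16 alternatives (adjusted p from 0.0135 to 0.925), among them equal library sums (adjusted p = 0.0225), the length-weighted sum (0.0135) and the fit without DMSO replicate 3 (0.0261). Its transcripts changed places between libraries. WWC1-213 was highest in DMSO replicate 3 and LBH589 replicate 1, at 2.40 and 3.36 FPKM, and WWC1-202 and WWC1-209 were listed at 0 in those same libraries and above 0 in the other 4.

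PTPN14, a phosphatase that binds YAP1 and keeps it in the cytoplasm, did not pass. It was at 4.15, 4.65 and 5.08 FPKM with DMSO against 2.47, 7.14 and 6.54 FPKM in LBH589. LBH589 replicate 1 was the lowest of all 6 libraries and the other LBH589 replicates the highest, so the groups overlapped. The means were 4.62 ± 0.464 and 5.38 ± 2.54 FPKM (log2 fold change 0.09, SE 0.34, adjusted p = 0.850). Without LBH589 replicate 1 the log2 fold change was 0.48 (adjusted p = 0.0580), and without replicate 2 or 3 it was -0.13 or -0.08, with adjusted p from 0.0580 to 0.963 over 17 alternatives. The opposite-strand gene KRT18P12 overlaps 6.47% of its exon bases.

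AJUBA, a LIM protein that binds and restrains the LATS kinases at junctions, did not pass either. It was at 3.47, 3.62 and 3.29 FPKM with DMSO against 3.20, 4.31 and 1.68 FPKM in LBH589. The DMSO libraries were nearly equal, and the LBH589 libraries lay on both sides of them, with replicate 3 lowest. The means were 3.46 ± 0.167 and 3.07 ± 1.32 FPKM (log2 fold change -0.19, SE 0.26, adjusted p = 0.585). The longer transcript AJUBA-201 was at 1.78 ± 0.226 and 2.29 ± 0.801 FPKM and the shorter AJUBA-203 at 1.68 ± 0.0845 and 0.776 ± 0.568 FPKM, and neither passed (adjusted p = 0.623 and 0.188).

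**Figure D3:**
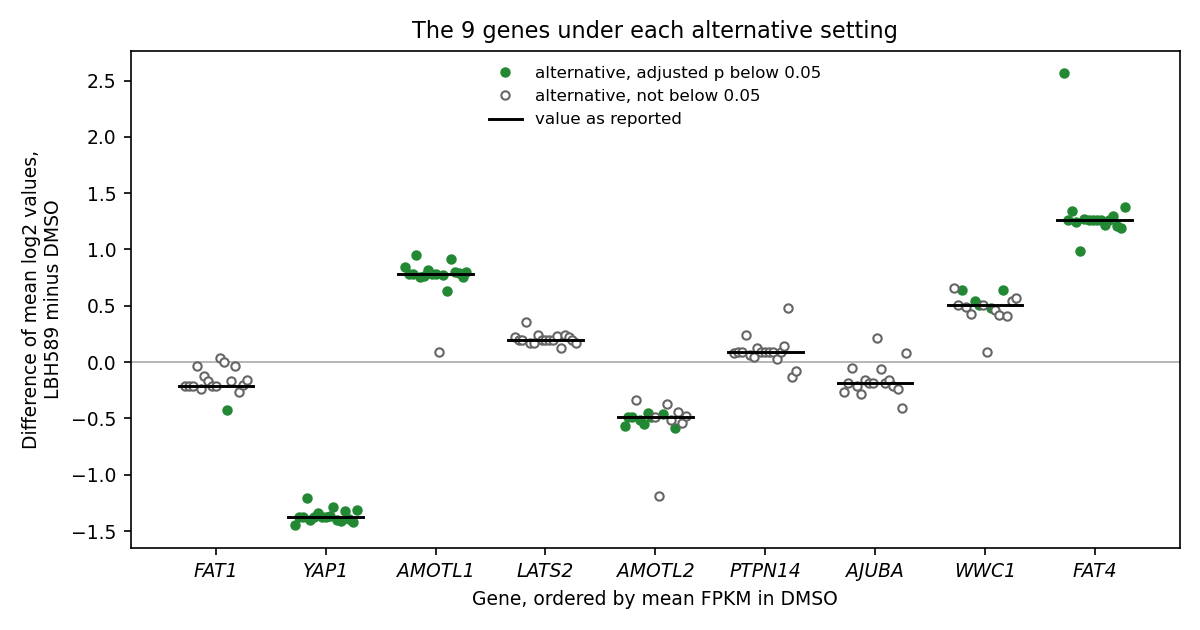
Difference of mean log2 values, LBH589 minus DMSO, for each of the 9 genes under every alternative setting that could be fitted; filled points passed at adjusted p below 0.05, open points did not, and black bars are the values as reported. YAP1 and FAT4 are filled throughout (17 and 16 alternatives), AMOTL2 is mixed (9 of 17), and LATS2, PTPN14 and AJUBA are open throughout.

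Ordered by mean summed FPKM, the DMSO libraries had FAT1, YAP1, AMOTL1, LATS2, AMOTL2, PTPN14, AJUBA, WWC1 and FAT4, from high to low. The ranges of AMOTL1 and LATS2, and those of LATS2 and AMOTL2, overlapped, and all other neighbours were apart. Each transcript's FPKM is per length, but a sum over transcripts of different lengths, as for FAT1, is only roughly so, and the order between genes carries that limit. In LBH589 the order was FAT1, AMOTL1, YAP1, LATS2, PTPN14, AMOTL2, WWC1, AJUBA and FAT4. There the first 4 gaps were free of overlap, while PTPN14, AMOTL2, WWC1, AJUBA and FAT4 each overlapped their neighbour. YAP1 and LATS2 were barely apart, at 9.870 and 9.865 FPKM in LBH589 replicate 3.

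Genes whose values over the 6 libraries were most like those of FAT4, by Pearson's r of log2(FPKM + 1), were LRP2 (r = 0.999), UNC80 (0.999) and FAM227B (0.998). LRP2, a large endocytic receptor, was at 1.64, 2.09 and 2.37 FPKM with DMSO against 18.04, 18.8 and 10.2 FPKM in LBH589, with LBH589 replicate 3 the lowest of its group, as it was for FAT4. The genes most like YAP1 were PARVA (r = 0.9995), RNF145 (0.9994) and ATP10A (0.9994). PARVA, an actin-binding adaptor of focal adhesions, was at 16.1, 15.3 and 18.9 FPKM with DMSO against 4.45, 4.49 and 3.65 FPKM in LBH589. These correlations describe 6 points in 2 separate groups and mostly reflect the difference between treatments.

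Among the other pathway genes, from lists by role, 69 were tested, of which 14 were called higher, 14 lower and 41 not, against 27.2% higher and 21.6% lower over all tested genes. Their median log2 fold change was 0.18, beside 0.08 over all tested genes. Making library sums equal moved the median of all tested genes to 0.22 and gave 27 higher and 11 lower, whereas equal medians gave 15 and 14 and quantile normalization 16 and 14. Changes of these genes are given on the scale of the FPKM as deposited.

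Of the FAT and dachsous list, FJX1, the homologue of the kinase four-jointed that acts on these cadherins, was the only gene tested besides FAT1 and FAT4. It fell from 2.73 ± 0.0458 to 0.972 ± 0.386 FPKM (log2 fold change -0.94, adjusted p = 0.00474). FAT4 and FJX1 thus moved in opposite directions. FAT2, FAT3, DCHS1 and DCHS2 had no listed transcript here and could not be compared.

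Of 9 tested kinases upstream of LATS2, 2 were higher, 2 were lower and 5 did not pass. The shares over all tested genes were 27.2% higher and 21.6% lower. TAOK2, which activates the kinases STK3 and STK4, rose from 3.06 ± 0.598 to 9.43 ± 0.438 FPKM (log2 fold change 1.37, adjusted p = 5.86e-04), and TNIK rose from 8.05 ± 0.916 to 12.1 ± 0.214 FPKM (0.54, adjusted p = 0.01001). MAP4K4, which can phosphorylate LATS directly, fell from 51.9 ± 13.5 to 18.2 ± 2.94 FPKM (log2 fold change -1.44, adjusted p = 0.00263), a call that ended with its most abundant transcript alone (-1.31, adjusted p = 0.596). TAOK3 fell from 70.01 ± 13.9 to 33.8 ± 9.47 FPKM (-1.05, adjusted p = 0.0151), but its most abundant transcript went the other way without passing (log2 fold change 1.67, adjusted p = 0.187). The TAO kinases TAOK2 and TAOK3, and the related MAP4K-family kinases TNIK and MAP4K4, thus each held calls in both directions.

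Of the 12 junction and membrane scaffolds, all tested, 2 were higher, 1 was lower and 9 did not pass. Over all tested genes 27.2% were higher and 21.6% lower. AMOTL1 and AMOTL2 were among the scaffold calls. The other call was TJP1, a tight junction scaffold that binds angiomotins, which rose from 14.6 ± 2.58 to 28.96 ± 0.452 FPKM (log2 fold change 0.95, adjusted p = 0.00218). NF2, the tumour suppressor merlin, was at 7.79 ± 1.66 and 6.24 ± 1.28 FPKM (adjusted p = 0.296). WWC2, a close relative of WWC1, was at 14.5 ± 3.81 and 21.4 ± 3.23 FPKM (log2 fold change 0.55, adjusted p = 0.0816) and passed with equal library sums (0.0245), with length-weighted sums (0.0274) and without DMSO replicate 2 (0.0489). FRMD6 was at 4.97 ± 0.509 and 6.12 ± 0.734 FPKM and CTNNA1 at 47.6 ± 7.94 and 57.6 ± 6.598 FPKM, and both passed only with equal library sums (adjusted p = 0.0425 and 0.0402).

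Of 10 tested cell polarity proteins, 3 were higher and 0 lower, near the 27.2% of all tested genes that were higher. MPP5, a partner of the Crumbs complex, rose from 9.0005 ± 1.602 to 18.9 ± 0.885 FPKM (log2 fold change 1.00, adjusted p = 0.001995). PARD6B rose from 0.525 ± 0.240 to 2.07 ± 0.169 FPKM (1.02, adjusted p = 0.00254). PARD6A was at 0.127 FPKM in DMSO replicate 1, listed at 0 in replicates 2 and 3, and at 1.80, 1.13 and 2.44 FPKM with LBH589 (log2 fold change 1.39, adjusted p = 0.00189), a call that ended with its most abundant transcript alone (0.80, adjusted p = 0.182). Like FAT4, PARD6A was below 0.5 FPKM in all DMSO libraries, and so was listed through its LBH589 values alone. SCRIB, a scaffold of the basolateral membrane, was at 2.83 ± 1.08 and 5.30 ± 0.969 FPKM and just missed the threshold (adjusted p = 0.0508), which it passed in 8 alternatives.

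Among the 3 tested LIM proteins that bind LATS2 and LATS1, LIMD1 was lower, while AJUBA and ZYX did not pass. Over all tested genes 21.6% were lower and 27.2% higher. LIMD1 fell from 3.61 ± 0.528 to 1.55 ± 0.292 FPKM (log2 fold change -0.85, adjusted p = 0.00513). ZYX was at 9.05 ± 2.53 and 8.81 ± 1.10 FPKM.

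Of 16 tested genes of STRIPAK, the phosphatase complex that switches off STK3 and STK4, 3 were higher and 4 lower. Among all tested genes 27.2% were higher and 21.6% lower. MOB4 rose from 2.53 ± 0.701 to 10.5 ± 2.15 FPKM and FGFR1OP2 from 16.4 ± 2.61 to 39.3 ± 1.83 FPKM (adjusted p = 9.80e-04 and 7.18e-04). STRIP2 rose from 1.05 ± 0.0729 to 2.23 ± 0.162 FPKM (adjusted p = 0.00466). STRN3, a regulatory subunit, fell from 22.5 ± 3.72 to 8.24 ± 1.02 FPKM (adjusted p = 9.46e-04). The calls of MOB4 and STRN3 ended when only their most abundant transcript was used (adjusted p = 0.278 and 0.0842).

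Of 10 tested genes that retain or degrade phosphorylated YAP1, 3 were lower and 0 higher, where 21.6% of all tested genes were lower. YWHAE, an adaptor that binds phosphorylated YAP1 in the cytoplasm, fell from 141 ± 10.96 to 60.4 ± 6.57 FPKM (log2 fold change -1.22, adjusted p = 4.18e-04), and YWHAZ, of the same family, from 937 ± 110 to 585 ± 48.4 FPKM (-0.68, adjusted p = 0.00647). The most abundant YWHAZ transcript went the other way without passing (log2 fold change 0.92, adjusted p = 0.652). FBXW11, a substrate receptor of the ubiquitin ligase that degrades YAP1, went from 21.6 ± 0.388 to 17.3 ± 1.44 FPKM (adjusted p = 0.0402), a call that ended with equal library sums (adjusted p = 0.300) and when any 1 of the 6 libraries was left out (0.0501 to 0.119). Its relative BTRC was at 4.58 ± 0.354 and 5.73 ± 0.337 FPKM and passed only with equal library sums (adjusted p = 0.0257).

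YAP1 belongs to a list of coactivators and TEAD factors of which 8 were tested, 2 higher, 4 lower and 2 not called. The background over all tested genes was 27.2% higher and 21.6% lower. The TEAD factors, the DNA-binding partners of YAP1, went in different directions. TEAD1 was at 19.7, 9.48 and 10.4 FPKM with DMSO against 23.2, 48.7 and 50.5 FPKM with LBH589 (log2 fold change 1.55, SE 0.39, adjusted p = 0.0183). DMSO replicate 1 and LBH589 replicate 1 lay near each other, and the call ended without DMSO replicate 2 (adjusted p = 0.0585) or 3 (0.0553) or LBH589 replicate 2 (0.0630) or 3 (0.0637). TEAD2 was at 25.4, 10.4 and 10.8 FPKM in DMSO and fell to 2.14, 2.77 and 2.16 FPKM with LBH589 (log2 fold change -2.19, SE 0.34, adjusted p = 0.00287). TEAD4 fell from 6.51 ± 2.48 to 3.07 ± 0.282 FPKM (-0.84, adjusted p = 0.0288), a call that ended with equal library sums (adjusted p = 0.0623) and without LBH589 replicate 1 (0.0847), 2 (0.0652) or 3 (0.0769). TEAD3 was at 3.93 ± 1.12 and 4.01 ± 0.878 FPKM. VGLL4, which competes with YAP1 for TEAD factors, fell from 20.8 ± 2.26 to 10.9 ± 0.720 FPKM (-0.87, adjusted p = 0.00154). VGLL3, another TEAD partner, was listed at 0 in all DMSO libraries and at 1.00, 1.03 and 1.21 FPKM in LBH589. It was therefore listed through its LBH589 values alone. WWTR1, the paralogue of YAP1, had no listed transcript here and could not be compared.

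**Figure D4:**
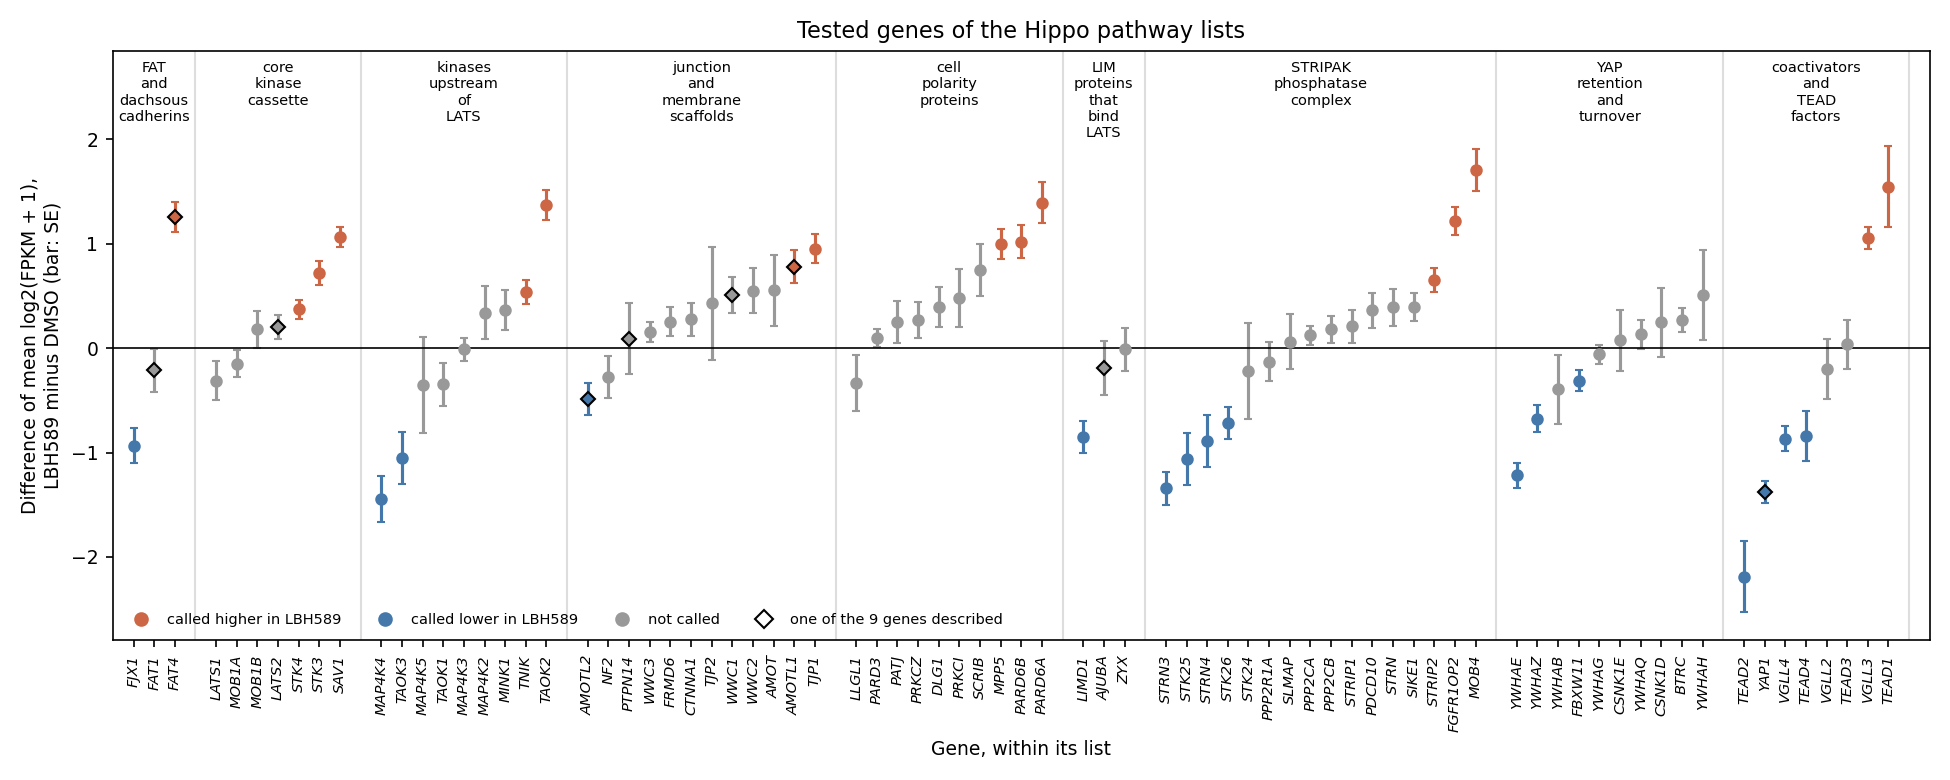
Difference of mean log2(FPKM + 1), LBH589 minus DMSO, with its standard error as bars, for the tested genes of the Hippo pathway lists by role, target genes left out; orange genes were called higher, blue lower and grey not called, and diamonds mark the 9 genes described. Calls of both directions stand side by side in most lists, with YAP1 at -1.38 and FAT4 at 1.26.

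Known target genes of YAP1 and TEAD factors, 18 of them tested, were found in both directions, with 7 higher, 5 lower and 6 not called (median log2 fold change 0.20). Over all tested genes 27.2% were higher and 21.6% lower, with a median of 0.08. AMOTL2, LATS2 and PTPN14 are themselves on this list, and FJX1 stands on it as well. CTGF, the matricellular protein most used as a readout of YAP1, was at 0.839, 0.764 and 0.961 FPKM with DMSO against 137, 127 and 142 FPKM with LBH589 (log2 fold change 6.20, adjusted p = 3.83e-06). CYR61, its relative, went from 4.90 ± 0.480 to 172 ± 12.4 FPKM (4.88, adjusted p = 7.16e-06). ANKRD1, listed at 0 in DMSO, reached 5.88, 5.001 and 4.85 FPKM with LBH589. Like FAT4, ANKRD1 was listed through its LBH589 values alone, so only a rise could be seen. IGFBP3 rose from 1.20 ± 0.121 to 13.4 ± 0.871 FPKM (adjusted p = 3.35e-05). F3, CRIM1 and GADD45A were also called higher (log2 fold change 1.13, 1.32 and 2.01, adjusted p = 6.87e-04, 1.71e-04 and 0.00195). The 7 higher targets thus rose in the libraries where YAP1 was lower, while the 5 lower targets fell there together with YAP1. Those 5 were FOXF2 (-2.24, adjusted p = 8.19e-05), FJX1 (-0.94, 0.00474), NT5E (-0.77, 0.00591), ARHGEF17 (-0.52, 0.0287) and AMOTL2 (-0.49, 0.0373).

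The libraries matched their labelled cell type in DMSO, where all 7 melanocyte markers were listed and summed to between 2530 and 2670 FPKM. In LBH589 that sum lay between 718 and 774 FPKM, 6 of the 7 markers were called lower, and PMEL was not. Over all tested genes 21.6% were called lower and 27.2% higher. Of the markers of other cells, 2 of 6 for fibroblasts were listed (COL1A1 and LUM, both called higher, summed 1.47 to 2.52 FPKM in DMSO and 4.23 to 5.55 FPKM in LBH589). For epithelium 1 of 6 was listed (EPCAM, 0.190 to 0.452 and 0.692 to 1.12 FPKM), for blood 1 of 6 (CD68, 11.6 to 16.8 and 6.69 to 12.4 FPKM) and for endothelium 0 of 4. EPCAM had a DMSO mean of 0.313 FPKM, so it was listed through its LBH589 values alone. CD68 and PMEL did not pass the test and their groups overlapped, while the other markers listed differed with treatment, as FAT4, YAP1 and AMOTL1 did, and their part in those results was not tested. In bulk RNA, fewer cells of a type and less RNA per cell cannot be told apart. Summed FPKM was 397174 to 422630 in DMSO and 355148 to 367222 in LBH589, with 35.8 to 45.7% and 35.1 to 37.3% of it from mitochondrially encoded genes.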

How the data were processed

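Each of the 6 deposited files holds an FPKM value for every listed transcript, per the file headers. The submitters' processing notes name Bowtie 0.12.2 and hg19 but no role for either. For the quantifier, the annotation and any use of strand, the entry is: not given in the sources used here. All 30624 listed transcripts have a mean of at least 0.5 FPKM in a group (lowest 0.500). Transcripts were named through GENCODE release 29 (99.6% matched), and FPKM was summed per gene. Summing adds values divided by different lengths.

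Sums on the log2(FPKM + 1) scale went into limma 3.58.1 under R 4.3.3 (trend and robust moderation, treatment only), with Benjamini-Hochberg adjustment over all tested genes, or over all tested transcripts. Genes with a mean under 0.5 FPKM over the 6 libraries were not tested. Ratios used exact permutation tests (scipy 1.17.1). A gene at 0 FPKM is described as listed at 0, since that can be a failed estimate. FPKM does not give the depth of a library, so no counting intervals are given. After multiplication by transcript length, low values gathered at a step in 4 of the 6 libraries, but what a step stands for was not established.

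The named genes were the 9 members, up to 4 tested others per list with the smallest adjusted p, and a fixed set of pathway genes (STK3, STK4, LATS1, NF2, TEAD1 to TEAD4, CTGF and CYR61). The 3 genes nearest in pattern to FAT4 and to YAP1 were added by Pearson's r. COL1A1, LUM, EPCAM, CD68 and PMEL come from the marker lists. MOB1A, MOB1B and the targets F3, CRIM1, GADD45A, FOXF2, NT5E and ARHGEF17 were named after their values were seen. The members, lists and markers were chosen with earlier results of these data known. The planned YAP1 to WWTR1 ratio and the search of protein sequences were not made. The test was checked only on simulated data in which few genes changed, unlike these data, so the check gives no error rate here.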

Additional observations from a re-analysis of the deposited data

How the results depend on the processing

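YAP1 and FAT4 kept their direction and their calls in every alternative that could be fitted (17 and 16), and AMOTL1 kept its call in 16 of 17. FAT4 was listed through its LBH589 values alone, so only a rise could be seen, and the alternatives do not test its direction. FAT4, WWC1 and AJUBA fell below a mean of 5 FPKM and were not tested at that filter. With FAT4 untested, 1 of the 9 genes was called higher in place of 2. Over all genes 1844 of the 6866 tested at that filter were called higher, against 3132 of 11520. With the most abundant transcript 1 was called higher and 1 lower. Over all 11457 genes tested in that setting 2233 were higher and 1753 lower. The number called lower was also 1 in place of 2 with equal library sums and at adjusted p below 0.01, and 1 to 2 when a library was left out, where the number called higher was 2 to 3. Over all tested genes 2009 were lower with equal sums and 1664 at adjusted p below 0.01, in place of 2485. Leaving out a library gave 2047 to 2418 lower and 2577 to 3243 higher over all tested genes. Equal sums raised the other pathway genes called higher from 14 to 27, and the share of calls that were higher from 55.8 to 65.0% over all genes. The length-weighted sums were added after the data were seen.

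Replicate numbers did not pair the libraries (correlations of same-numbered deviations -0.10, 0.02 and -0.04). With the replicate number as a block, 2 of the 9 genes were called higher and 1 lower (AMOTL2 lost, adjusted p = 0.0907), and 2617 and 2172 of all genes, against 3132 and 2485 without it. At the transcript level the calls of FAT4-202, YAP1-202 and YAP1-207 ended (adjusted p = 0.0733, 0.0592 and 0.0597), as did the gene calls of TEAD1 (0.0631), TEAD4 (0.0637), STK4 (0.0554) and FBXW11 (0.0954).

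Changes of sign, none of them passing the test, were as follows, and the cause was not tested. With the most abundant transcript, log2 fold changes became 0.034 for FAT1, 0.22 for AJUBA, 0.11 for LATS1, 1.67 for TAOK3, 0.92 for YWHAZ, 0.54 for NF2 and 0.94 for TEAD4. With length-weighted sums they became 0.0050 for FAT1 and 0.048 for NF2. Leaving out a library gave between -0.13 and 0.48 for PTPN14, -0.41 and 0.084 for AJUBA, -0.18 and 0.18 for ZYX, and -0.17 and 0.19 for TEAD3. ZYX was 0.15 and 0.029 with equal sums, with and without mitochondrial genes, and TEAD3 was -0.024 after quantile normalization. Depth is not known from FPKM, so the least change that could have been detected in FAT4, near 0.260 FPKM in DMSO, cannot be given.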
